A study of Mus musculus with 9 samples.

Results

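Cholesterol synthesis and its sterol-sensing machinery were followed here as a set of 27 genes of the mouse liver transcriptome. The set was chosen by gene symbol, with earlier results of these data known. It holds 19 enzymes of the mevalonate and sterol steps, in pathway order, 4 genes of sterol sensing and 4 genes of sterol transport, uptake or related SREBP2 targets. All 27 were listed among the 16266 genes that the deposited tables have in common. The study injected wild-type mice through the tail vein with AAV8 vectors (adeno-associated virus serotype 8) carrying the TBG promoter, which is active in hepatocytes. The vector encoded either FLAG-tagged Mettl3 (AAV8-TBG-Mettl3-3×FLAG-WPRE) or no inserted gene (AAV8-TBG-MCS-3×FLAG-WPRE). After 3 weeks the mice received an ethanol-containing or a control diet for 10 days and then a single binge, of ethanol or of maltose. RNA of whole liver was sequenced in 3 libraries of each of 3 groups. These are the Mettl3OE EtOH-fed livers (called Mettl3 ethanol-fed), the WT EtOH-fed livers (control-virus ethanol-fed) and the WT pair-fed livers (pair-fed). Sample titles name no virus, so that the WT libraries are taken to carry the control vector from the study's design. Strain, sex and age are not given in the sources used here, and a pair-fed group with the Mettl3 vector was not analysed here. Mettl3 is therefore compared under ethanol alone, as an added gene driven in hepatocytes.

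Hepatocytes build cholesterol from acetyl-CoA through mevalonate, isoprenoid diphosphates, squalene and lanosterol, and the liver is a main site of this synthesis in the body. The pathway's genes are targets of SREBP2, a transcription factor made as a membrane protein of the endoplasmic reticulum. SCAP escorts it to the Golgi for cleavage when sterols are low, and the INSIG proteins hold SCAP back when sterols are high, so that enzymes and Insig1 are known to rise and fall together. METTL3 is the catalytic subunit of the enzyme complex that places N6-methyladenosine on messenger RNA.

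The regions around the transcription starts are shown because they are the stretch through which these genes are known to be controlled together. Insig2 has windows at several annotated starts, and Insig1 has 1 window. RefSeq windows of 300 bases (250 before and 50 after an annotated start, build GRCm38.p6) were at hand for 23 of the 27 genes, in 30 windows, and not for Fdps, Fdft1, Sqle and Stard4. The motifs searched on both strands were the sterol regulatory element written as TCACNCCAC, the NF-Y box CCAAT, the Sp1 box GGGCGG and the E-box form TCACGTGA, and a match was counted whether or not it overlapped another. CCAAT, or ATTGG on the other strand, was in the windows of 21 of the 23 genes (91.3%), against 42.8% of the 8144 genes tested in ethanol-fed against pair-fed livers that have a window and 41.1% of all 27025 genes with one. At least 2 copies in 1 window were found in 14 of the 23 genes (60.9%), against 16.6% of the tested genes. Acat2 and Scap were the genes whose windows held no CCAAT. The Sp1 box GGGCGG was in 20 of the 23 genes (87%), against 67.6% of the tested genes. TCACNCCAC was found in 1 of the 23, Hmgcs1, against 1.51% of the tested genes, and TCACGTGA in 0 of the 23 against 2.37%. Insig1 and Insig2 both had CCAAT and GGGCGG in a window, and neither had TCACNCCAC or TCACGTGA. A match is a run of letters and not a site shown to be bound, and these spellings do not cover every known form of the element. Each line gives 1 window 5′ to 3′ on the gene's strand, with TCACNCCAC and CCAAT, on either strand, in capitals. Hmgcs1 carries the sterol element, Mvk, Nsdhl and Insig1 stand for the genes that have the NF-Y box, and the Insig2 windows belong to its upstream start and to a start further downstream.
Hmgcs1 (chr13:119690101-119690400, + strand): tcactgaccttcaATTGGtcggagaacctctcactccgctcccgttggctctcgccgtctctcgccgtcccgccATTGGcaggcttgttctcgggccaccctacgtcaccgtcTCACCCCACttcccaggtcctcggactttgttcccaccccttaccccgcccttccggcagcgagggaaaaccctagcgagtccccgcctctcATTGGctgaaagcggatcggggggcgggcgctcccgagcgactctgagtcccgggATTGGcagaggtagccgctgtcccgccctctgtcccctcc
Mvk (chr5:114444019-114444318, + strand): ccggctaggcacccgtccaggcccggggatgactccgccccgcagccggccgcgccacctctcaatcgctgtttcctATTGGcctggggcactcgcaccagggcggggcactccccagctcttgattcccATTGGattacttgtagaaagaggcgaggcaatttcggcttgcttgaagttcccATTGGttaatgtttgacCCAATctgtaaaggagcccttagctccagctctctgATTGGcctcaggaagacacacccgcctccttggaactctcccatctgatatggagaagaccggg
Nsdhl (chrX:72918271-72918570, + strand): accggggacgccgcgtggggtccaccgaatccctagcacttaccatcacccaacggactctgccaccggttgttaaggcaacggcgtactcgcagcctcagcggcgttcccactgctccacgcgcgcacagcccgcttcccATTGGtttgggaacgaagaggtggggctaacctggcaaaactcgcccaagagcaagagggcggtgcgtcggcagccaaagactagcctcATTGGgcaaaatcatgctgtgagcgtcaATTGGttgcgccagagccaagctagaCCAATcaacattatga
Insig1 (chr5:28071162-28071461, + strand): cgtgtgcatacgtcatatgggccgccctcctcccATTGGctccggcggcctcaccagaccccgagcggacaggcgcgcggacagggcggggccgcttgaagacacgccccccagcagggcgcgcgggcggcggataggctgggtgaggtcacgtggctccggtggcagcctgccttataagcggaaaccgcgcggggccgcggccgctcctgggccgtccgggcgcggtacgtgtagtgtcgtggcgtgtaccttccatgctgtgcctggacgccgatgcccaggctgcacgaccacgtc
Insig2, upstream start (chr1:121332540-121332839, - strand): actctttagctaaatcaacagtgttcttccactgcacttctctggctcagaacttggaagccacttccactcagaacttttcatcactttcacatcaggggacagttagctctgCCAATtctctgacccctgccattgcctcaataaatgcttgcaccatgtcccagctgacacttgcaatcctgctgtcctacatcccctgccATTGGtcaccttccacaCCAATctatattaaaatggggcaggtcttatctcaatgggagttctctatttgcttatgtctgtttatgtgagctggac
Insig2, downstream start (chr1:121327975-121328274, - strand): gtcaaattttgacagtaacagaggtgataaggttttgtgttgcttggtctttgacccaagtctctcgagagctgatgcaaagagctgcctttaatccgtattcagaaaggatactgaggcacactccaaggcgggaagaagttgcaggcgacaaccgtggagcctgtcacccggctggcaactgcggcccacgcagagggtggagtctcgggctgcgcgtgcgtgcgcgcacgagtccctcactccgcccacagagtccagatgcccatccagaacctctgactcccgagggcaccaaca
The downstream Insig2 window has no letters in capitals, and neither had the third Insig2 window, which is not printed.

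Levels are FPKM, read counts scaled to gene length and library total, as the authors deposited them. Whole reads were recovered from these values together with the authors' group means of normalized counts. Over the listed genes they summed to between 34656256 and 38159563 per library. The 27 genes had from 69 reads (Mvk) to 20111 reads (Sc5d) in a library. Mettl3 had 38.5, 25.0 and 33.3 FPKM in the Mettl3 ethanol-fed livers, against 5.44, 4.86 and 3.78 FPKM in the control-virus ethanol-fed livers and 3.97, 3.10 and 3.38 FPKM in the pair-fed livers, and was thus highest in the libraries labelled for it. Summed FPKM of 7 hepatocyte genes was 47800 to 56360 in Mettl3 ethanol-fed, 50760 to 63090 in control-virus ethanol-fed and 54410 to 61380 in pair-fed livers. Alb made up most of these sums, with means of 34030, 42740 and 44060 FPKM in that order. Of the 7, limma called 2 higher with ethanol in control-virus mice and 0 lower, against 10.0% and 26.0% of all genes tested. These were Fga (1.48 ± 0.31 on the log2 scale, adjusted p = 0.0117) and Cps1 (0.83 ± 0.22, adjusted p = 0.0244). Sums of 6 Kupffer cell genes were lower in every ethanol-fed liver (69.2 to 144 FPKM with Mettl3 and 86.0 to 134 FPKM with control virus) than in the pair-fed livers (166 to 193 FPKM). Limma called 5 of the 6 lower with ethanol in control-virus mice, and Marco was not called (0.52 ± 0.25 on the log2 scale, adjusted p = 0.141). Sums of 6 sinusoidal endothelial genes were 86.2 to 104 FPKM with Mettl3 and 80.7 to 89.5 FPKM with control virus, against 113 to 129 FPKM in pair-fed livers. In control-virus mice 5 of these endothelial genes were called lower with ethanol and 1, Lyve1, was called higher (1.90 ± 0.24 on the log2 scale, adjusted p = 0.00229). Sums of 6 stellate cell genes were 130 to 147 FPKM with Mettl3 and 121 to 149 FPKM with control virus under ethanol, against 149 to 173 FPKM in pair-fed livers. Dcn made up most of these sums, with means of 106, 104 and 108 FPKM in that order, and was not called in control-virus mice. Of the 6 stellate genes, 4 were called lower with ethanol there. The 4 listed neutrophil genes summed to 47.0 to 103 FPKM with Mettl3, 8.42 to 70.8 FPKM with control virus under ethanol and 6.35 to 10.4 FPKM in pair-fed livers. The part of these cell types in the results was not tested. In whole liver, fewer cells of a type and less RNA per cell cannot be told apart. The third control-virus ethanol-fed liver was the lowest of its group for 53.7% of all genes tested, and for 21 of the 27 genes. The first was the highest of that group for 60% of all genes tested, and for 10 of the 27 genes. It also had the fewest recovered reads of all libraries, 34656256.

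In control-virus mice, ethanol feeding went with lower expression of most of the pathway and with higher expression of a pair of its genes. Of the 27 genes, 15 were lower in ethanol-fed than in pair-fed livers, 2 were higher (Sqle, squalene epoxidase, and Insig2, an anchor of SCAP) and 10 were not called. A call is an adjusted p under 0.05 from limma's moderated test on log2(FPKM + 1) with Benjamini-Hochberg adjustment over the 10064 genes that reached 1 FPKM in at least 3 libraries, all 27 included. Of all genes tested, 36.0% were called, 26.0% lower and 10.0% higher. The median log2 fold change of the 27 was -0.57, against -0.14 for all genes, and 23 of the 27 were below 0, against 64.7% of all genes. No value of the ethanol-fed livers reached into the pair-fed range for 16 genes below it and 2 above it, where the shares of all genes were 37.2% and 15.4%. Since 1 is added to the FPKM before the logarithm, fold changes of genes with low FPKM come out smaller than their ratios.

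Another scaling of the libraries moved these counts but turned no direction of a call. When libraries were scaled by the median ratio of their genes, the median of all genes moved from -0.14 to 0.01, the calls over all genes became 16.7% lower and 17.6% higher, and 12 of the 27 were lower and 2 higher, with a median of -0.39. Mvk, Lss and Srebf2 lost their calls. Leaving out pair-fed liver 1 or pair-fed liver 2 left 10 calls each, 8 lower and 2 higher, and leaving out the third control-virus ethanol-fed liver left 13. Calls over all genes fell as well, from 2616 lower and 1009 higher of 10064 with all livers. They were 1509 and 648 of 9795 without pair-fed liver 1, and 1130 and 408 of 9823 without pair-fed liver 2. Without the third control-virus ethanol-fed liver they were 1776 and 815 of 9931. Of the 17 calls, 10 held in all 12 alternatives of scaling, filter, pseudocount, model and left-out library, namely those of Acat2, Hmgcs1, Fdft1, Sqle, Tm7sf2, Nsdhl, Insig1, Insig2, Stard4 and Rdh11. The authors' deposited table, from their own test, has 14 of the 27 lower and 2 higher at a q-value under 0.05, where 12.6% of its genes are lower and 14.0% higher.

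**Figure D1:**
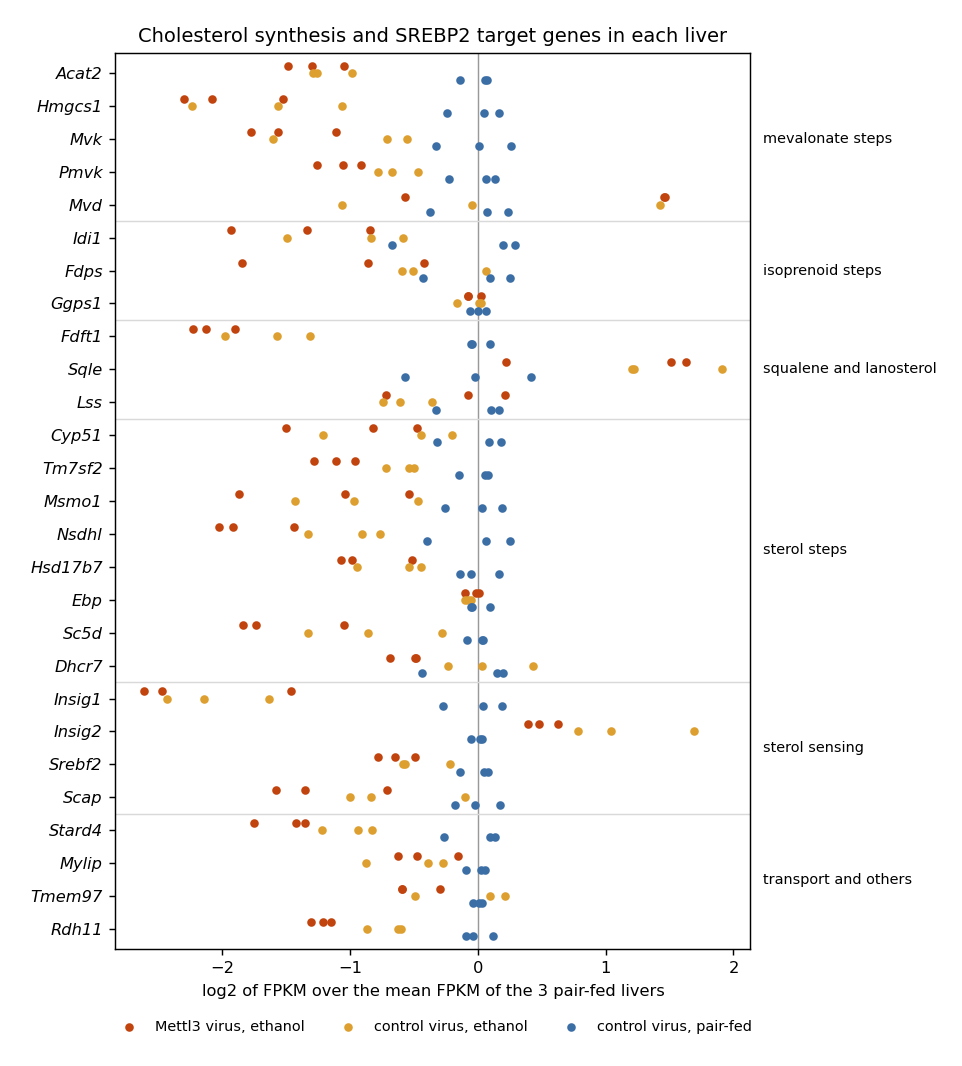
Each point is 1 liver, placed at the log2 of its FPKM over the mean FPKM of the 3 pair-fed livers, for the 27 genes in pathway order and 3 groups (red Mettl3 ethanol-fed, orange control-virus ethanol-fed, blue pair-fed). Most ethanol-fed points lie left of 0, those of Sqle and Insig2 lie right of it, and those of Ebp and Ggps1 stay near it.

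Mettl3 ethanol-fed livers set against the same pair-fed livers gave 19 of the 27 genes lower, 1 higher (Sqle) and 7 not called. Of the 10229 genes tested in this comparison 48.8% were called, 34.9% lower and 13.9% higher. The median of the 27 was -0.98, against -0.18 for all genes, and 24 of the 27 were below 0, against 65.9% of all genes. Values did not overlap for 20 genes below and 1 above the pair-fed range (Insig2), against 44.2% and 19.3% of all genes. This comparison combines the diet and the vector, so that neither can be told apart in it. It shares the pair-fed livers with the comparison above, so that the calls of both are not independent of each other. Under median-ratio scaling the all-gene median moved from -0.18 to 0.03, with 21.6% of all genes lower and 25.3% higher, and 14 of the 27 were lower and 2 higher (Sqle and Insig2), with a median of -0.71. Fdps, Cyp51, Msmo1, Srebf2 and Tmem97 lost their calls. Leaving out pair-fed liver 2 left 14 calls, all lower. Over all genes that fit gave 2413 lower and 962 higher of 10044, against 3572 and 1424 of 10229 with all livers.

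**Figure D2:**
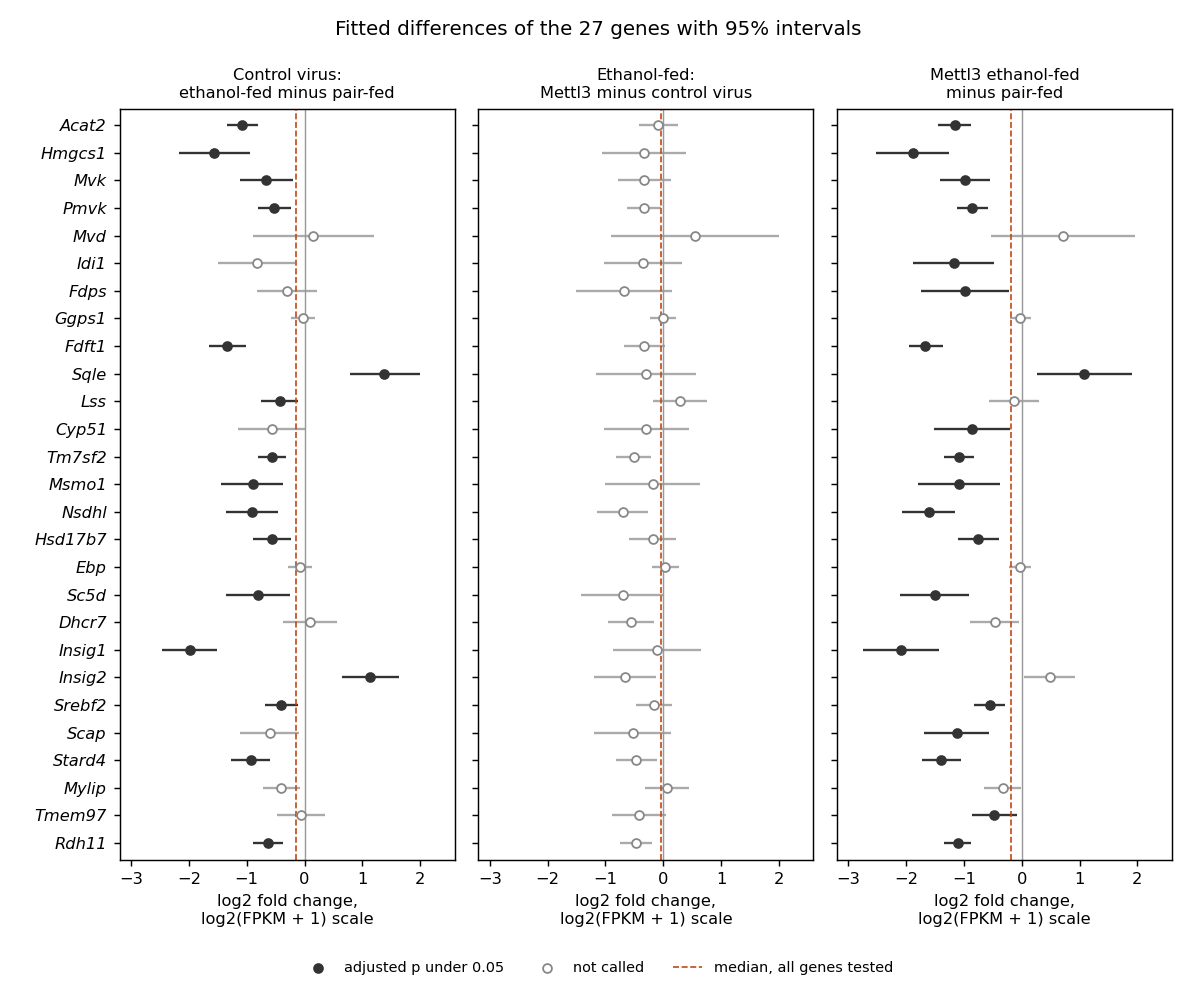
Fitted log2 fold changes on the log2(FPKM + 1) scale (points) with 95% intervals (bars) for the 27 genes in 3 comparisons, the dashed line being the median of all genes tested. Filled points, with an adjusted p under 0.05, number 17 in the left panel, 0 in the middle panel and 20 in the right panel.

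The mevalonate steps opened the pathway with 4 of 5 enzymes lower. Hmgcs1, the cytosolic HMG-CoA synthase, had 14.5, 21.2 and 12.4 FPKM in the Mettl3 ethanol-fed livers, 20.6, 29.3 and 12.9 FPKM in the control-virus ethanol-fed livers and 63.1, 68.3 and 51.6 FPKM in the pair-fed livers. Every ethanol-fed liver was under every pair-fed liver, and the pair of ethanol-fed groups overlapped. Its mean was 16.0 ± 4.62 FPKM in Mettl3 ethanol-fed livers, 20.9 ± 8.16 FPKM in control-virus ethanol-fed livers and 61.0 ± 8.53 FPKM in pair-fed livers (SD, n = 3 each). Ethanol-fed livers of the control virus were lower by limma, with a log2 fold change of -1.56 ± 0.27 (SE), with adjusted p = 0.00562, and the Mettl3 livers against pair-fed livers had a log2 fold change of -1.89 ± 0.28 (SE), with adjusted p = 0.00143. Acat2, the cytosolic acetoacetyl-CoA thiolase that makes the substrate of HMG-CoA synthase, had 6.13, 6.98 and 8.31 FPKM in the Mettl3 ethanol-fed livers, 7.19, 8.69 and 7.03 FPKM in the control-virus ethanol-fed livers and 18.1, 17.8 and 15.6 FPKM in the pair-fed livers. The ethanol-fed livers of both vectors overlapped, far below the pair-fed livers. Its difference was a log2 fold change of -1.08 ± 0.11 (SE), with adjusted p = 0.00126, for control virus and a log2 fold change of -1.16 ± 0.13 (SE), with adjusted p = 0.000495, with Mettl3. A near-identical neighbour, Acat3, can share reads with Acat2, so that the level of either is uncertain.

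Mvk, mevalonate kinase, was among the lowest of the 27, with 1.04, 1.20 and 1.64 FPKM in the Mettl3 ethanol-fed livers, 2.16, 2.40 and 1.16 FPKM in the control-virus ethanol-fed livers and 3.56, 4.23 and 2.81 FPKM in the pair-fed livers. Pmvk, which adds the next phosphate, had 2.58, 3.27 and 2.97 FPKM in the Mettl3 ethanol-fed livers, 4.46, 3.87 and 3.58 FPKM in the control-virus ethanol-fed livers and 6.43, 6.78 and 5.28 FPKM in the pair-fed livers. For Pmvk the 3 groups formed 3 separate ranges, lowest with Mettl3 and highest in pair-fed livers. The fits gave Mvk a log2 fold change of -0.66 ± 0.20 (SE), with adjusted p = 0.0367, and Pmvk a log2 fold change of -0.52 ± 0.12 (SE), with adjusted p = 0.0159, in control-virus mice, and -0.98 ± 0.19 on the log2 scale, adjusted p = 0.00378 for Mvk and -0.86 ± 0.12 on the log2 scale, adjusted p = 0.00115 for Pmvk in Mettl3 livers against pair-fed livers. The Mvk call of control-virus mice did not hold without ethanol-fed liver 3 (adjusted p = 0.0714) or without pair-fed liver 1, 2 or 3 (adjusted p = 0.0938, 0.126 and 0.057), and the Pmvk call did not hold without pair-fed liver 1 or 2 (0.0579 and 0.0752). Mvd, the decarboxylase that ends the mevalonate steps, was unlike its neighbours. It had 10.5, 10.6 and 2.57 FPKM in the Mettl3 ethanol-fed livers, 1.84, 10.3 and 3.71 FPKM in the control-virus ethanol-fed livers and 4.01, 4.52 and 2.94 FPKM in the pair-fed livers. The first and second Mettl3 livers and the second control-virus ethanol-fed liver were high, and the other 6 livers were low. Mvd was not called in any comparison with all livers, with a log2 fold change of 0.15 (95% interval -0.89 to 1.20) between ethanol-fed and pair-fed livers and 0.71 (-0.53 to 1.95) between Mettl3 and pair-fed livers. Without Mettl3 liver 3, Mvd was called higher in Mettl3 than in pair-fed livers, at 1.27 (adjusted p = 0.0461).

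Of the isoprenoid enzymes none of 3 was called between control-virus ethanol-fed and pair-fed livers, and 2 were lower in Mettl3 than in pair-fed livers. Idi1, which isomerises isopentenyl diphosphate, had 6.40, 9.00 and 4.24 FPKM in the Mettl3 ethanol-fed livers, 9.06, 10.8 and 5.76 FPKM in the control-virus ethanol-fed livers and 18.5, 19.9 and 10.2 FPKM in the pair-fed livers. The third pair-fed liver reached into the range of the control-virus ethanol-fed livers and stayed above all Mettl3 livers. The difference of control-virus mice was a log2 fold change of -0.83 ± 0.29 (SE), with adjusted p = 0.0564, which became a call without pair-fed liver 3 (-1.12, adjusted p = 0.0311), and that of Mettl3 livers was a log2 fold change of -1.18 ± 0.31 (SE), with adjusted p = 0.0136, which was lost without pair-fed liver 2 (adjusted p = 0.0547). Fdps, the farnesyl diphosphate synthase, had 28.6, 38.7 and 14.4 FPKM in the Mettl3 ethanol-fed livers, 36.4, 54.3 and 34.4 FPKM in the control-virus ethanol-fed livers and 55.3, 61.5 and 38.5 FPKM in the pair-fed livers. Its groups overlapped in both comparisons. Its lower level in Mettl3 livers than in pair-fed livers (-0.98 ± 0.33 on the log2 scale, adjusted p = 0.037) was lost without Mettl3 liver 1 or 3 (adjusted p = 0.0662 and 0.0724) and without pair-fed liver 1 or 2 (0.0975 and 0.118). Ggps1 makes geranylgeranyl diphosphate on a branch that leaves the sterol path, and its 9 values lay between 1.67 and 1.96 FPKM. The 95% interval of its log2 fold change was -0.23 to 0.18 in ethanol-fed against pair-fed livers and -0.21 to 0.16 with Mettl3 against pair-fed livers.

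Squalene synthase and squalene epoxidase, which act on consecutive steps, differed from pair-fed livers in opposite directions. Fdft1, the synthase that commits farnesyl diphosphate to sterols, had 1.87, 2.35 and 2.01 FPKM in the Mettl3 ethanol-fed livers, 2.94, 3.52 and 2.22 FPKM in the control-virus ethanol-fed livers and 8.46, 9.32 and 8.44 FPKM in the pair-fed livers. Pair-fed livers were apart from both ethanol-fed groups by a wide margin. The mean was 2.07 ± 0.248 FPKM in Mettl3 ethanol-fed livers, 2.89 ± 0.650 FPKM in control-virus ethanol-fed livers and 8.74 ± 0.499 FPKM in pair-fed livers (SD, n = 3 each), and limma gave a log2 fold change of -1.34 ± 0.14 (SE), with adjusted p = 0.00121, in control-virus mice and a log2 fold change of -1.67 ± 0.13 (SE), with adjusted p = 0.000168, with Mettl3. Sqle, the epoxidase and a rate-limiting step of sterol synthesis, had 22.6, 24.5 and 9.23 FPKM in the Mettl3 ethanol-fed livers, 18.5, 29.7 and 18.2 FPKM in the control-virus ethanol-fed livers and 10.6, 7.81 and 5.34 FPKM in the pair-fed livers. All control-virus ethanol-fed livers exceeded all pair-fed livers, and of the Mettl3 livers the third lay in the pair-fed range. The mean was 18.8 ± 8.31 FPKM in Mettl3 ethanol-fed livers, 22.1 ± 6.52 FPKM in control-virus ethanol-fed livers and 7.91 ± 2.62 FPKM in pair-fed livers (SD, n = 3 each), and the difference a log2 fold change of 1.38 ± 0.26 (SE), with adjusted p = 0.00759, for control virus. With Mettl3 it was a log2 fold change of 1.08 ± 0.36 (SE), with adjusted p = 0.0347, and this call was lost without Mettl3 liver 1 or 2 (adjusted p = 0.116 and 0.123) and without pair-fed liver 2 or 3 (0.081 and 0.122).

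The FPKM ratio of Sqle to Fdft1 was 12.1, 10.4 and 4.6 in the Mettl3 ethanol-fed livers, 6.3, 8.44 and 8.22 in the control-virus ethanol-fed livers and 1.25, 0.838 and 0.632 in the pair-fed livers. Every ethanol-fed ratio was above every pair-fed ratio. This ratio was formed after the values of its genes were seen. Lss, which closes epoxysqualene into lanosterol, had 4.01, 4.90 and 2.58 FPKM in the Mettl3 ethanol-fed livers, 2.54, 3.30 and 2.78 FPKM in the control-virus ethanol-fed livers and 4.56, 4.75 and 3.38 FPKM in the pair-fed livers. The control-virus ethanol-fed livers were all below the pair-fed livers and the Mettl3 livers overlapped both. Its lower level in control-virus mice (-0.43 ± 0.14 on the log2 scale, adjusted p = 0.0458) was lost in 9 of 12 alternatives. Among these were each control-virus ethanol-fed liver left out (adjusted p = 0.0744, 0.0529 and 0.104 without livers 1, 2 and 3) and pair-fed liver 1 or 2 left out (0.139 and 0.165).

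**Figure D3:**
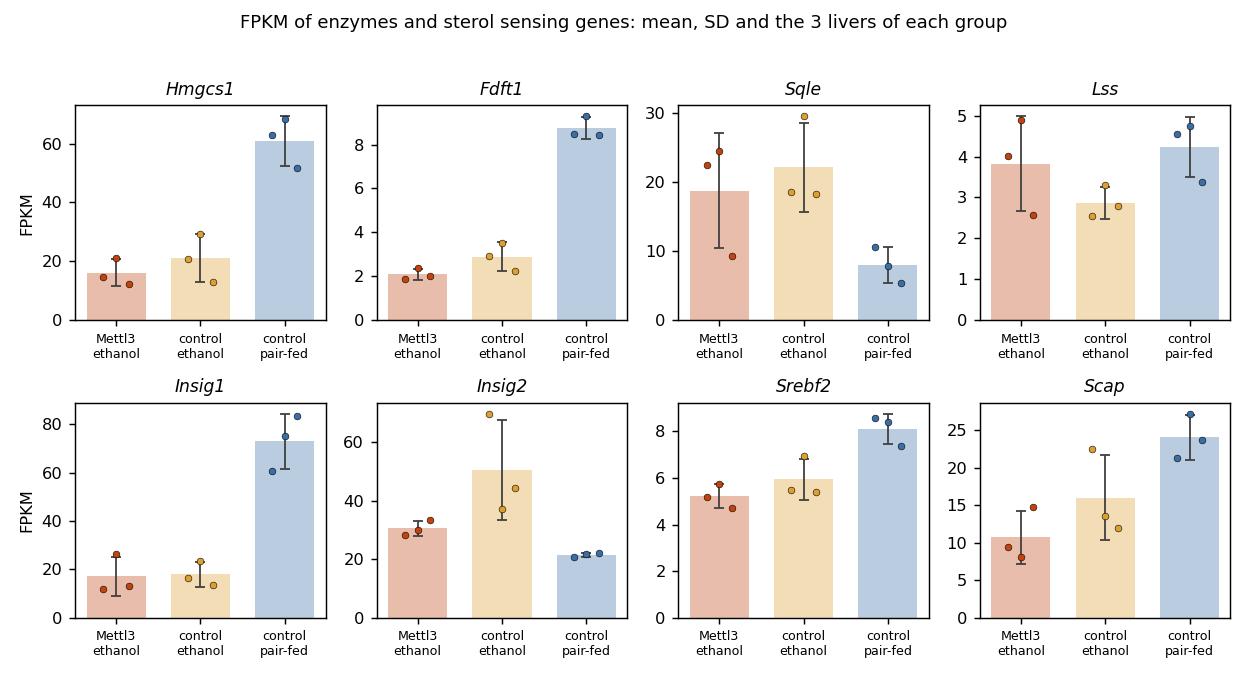
FPKM of 4 enzymes (upper row) and 4 sterol-sensing genes (lower row) in each liver (points), with group means (bars) and SD (error bars), n = 3 livers a group, ordered Mettl3 ethanol-fed, control-virus ethanol-fed, pair-fed. Hmgcs1, Fdft1 and Insig1 are tall in the pair-fed bars, Sqle and Insig2 in the ethanol-fed bars.

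After lanosterol, 5 of 8 sterol enzymes were lower in control-virus ethanol-fed than in pair-fed livers and 6 of 8 in Mettl3 than in pair-fed livers. Tm7sf2, a sterol reductase, had 21.0, 26.2 and 23.7 FPKM in the Mettl3 ethanol-fed livers, 36.1, 35.1 and 31.0 FPKM in the control-virus ethanol-fed livers and 46.1, 53.0 and 53.9 FPKM in the pair-fed livers. Nsdhl, which removes the methyl groups at carbon 4 by decarboxylation, had 5.58, 7.78 and 5.19 FPKM in the Mettl3 ethanol-fed livers, 12.4, 11.2 and 8.41 FPKM in the control-virus ethanol-fed livers and 22.1, 25.1 and 16.0 FPKM in the pair-fed livers. Both genes separated all 3 groups, with the Mettl3 livers lowest. Tm7sf2 had a log2 fold change of -0.57 ± 0.11 (SE), with adjusted p = 0.00749, in control-virus mice and a log2 fold change of -1.08 ± 0.11 (SE), with adjusted p = 0.000461, with Mettl3. For Nsdhl these were a log2 fold change of -0.91 ± 0.19 (SE), with adjusted p = 0.0117, and a log2 fold change of -1.61 ± 0.20 (SE), with adjusted p = 0.000805.

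Msmo1, the oxidase that acts on the same methyl groups, had 17.0, 24.1 and 9.59 FPKM in the Mettl3 ethanol-fed livers, 17.9, 25.4 and 13.0 FPKM in the control-virus ethanol-fed livers and 35.8, 39.9 and 29.3 FPKM in the pair-fed livers. Hsd17b7, the reductase that completes their removal, had 4.90, 7.20 and 5.23 FPKM in the Mettl3 ethanol-fed livers, 7.09, 7.58 and 5.35 FPKM in the control-virus ethanol-fed livers and 9.97, 11.6 and 9.37 FPKM in the pair-fed livers. In both genes all ethanol-fed livers were under the pair-fed livers and the ethanol-fed groups overlapped. Control-virus ethanol-fed livers were lower for Msmo1 (-0.90 ± 0.23 on the log2 scale, adjusted p = 0.0217) and Hsd17b7 (-0.57 ± 0.14 on the log2 scale, adjusted p = 0.0206). These calls were lost without pair-fed liver 1 or 2 for Msmo1 (adjusted p = 0.0645 and 0.0844) and without pair-fed liver 1, 2 or 3 for Hsd17b7 (0.0559, 0.0866 and 0.0525). In Mettl3 against pair-fed livers Hsd17b7 had -0.75 ± 0.16 on the log2 scale, adjusted p = 0.00541, and Msmo1 had -1.08 ± 0.32 on the log2 scale, adjusted p = 0.0202, which was lost without pair-fed liver 1 or 2 (0.0554 and 0.0694).

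Sc5d, the sterol desaturase late in the path, had 31.9, 29.9 and 51.6 FPKM in the Mettl3 ethanol-fed livers, 87.8, 58.8 and 42.3 FPKM in the control-virus ethanol-fed livers and 101, 109 and 109.6 FPKM in the pair-fed livers. Pair-fed livers lay within a narrow range above all others, while the control-virus ethanol-fed livers spread widely. It was lower in control-virus ethanol-fed livers (-0.81 ± 0.24 on the log2 scale, adjusted p = 0.0336) and in Mettl3 livers (-1.51 ± 0.27 on the log2 scale, adjusted p = 0.00268) than in pair-fed livers. The call of control-virus mice was lost without ethanol-fed liver 2 or 3 (adjusted p = 0.0841 and 0.0639) and without pair-fed liver 1, 2 or 3 (0.074, 0.105 and 0.103). Cyp51, the lanosterol demethylase, had 13.9, 17.7 and 8.69 FPKM in the Mettl3 ethanol-fed livers, 18.1, 21.4 and 10.6 FPKM in the control-virus ethanol-fed livers and 26.1, 27.9 and 19.7 FPKM in the pair-fed livers. It was called in Mettl3 against pair-fed livers (-0.86 ± 0.29 on the log2 scale, adjusted p = 0.0352) but not in control-virus mice (-0.57 ± 0.25 on the log2 scale, adjusted p = 0.111). The Mettl3 call was lost without Mettl3 liver 1 or 3 (0.0708 and 0.0881) and without pair-fed liver 1 or 2 (0.093 and 0.108).

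Ebp, the sterol isomerase, was the most even enzyme of the sterol steps, with 85.3 to 97.8 FPKM over the 9 livers. The 95% interval of its log2 fold change was -0.28 to 0.13 in control-virus ethanol-fed against pair-fed livers and -0.23 to 0.16 in Mettl3 against pair-fed livers. Dhcr7, the last reductase of one branch, had 5.69, 6.53 and 6.51 FPKM in the Mettl3 ethanol-fed livers, 12.3, 9.33 and 7.80 FPKM in the control-virus ethanol-fed livers and 10.2, 10.5 and 6.76 FPKM in the pair-fed livers. The control-virus ethanol-fed and pair-fed livers overlapped, and the Mettl3 livers were below both. Dhcr7 was not called with all livers, and Mettl3 against pair-fed livers gave a call without pair-fed liver 3 (-0.65, adjusted p = 0.0249) or, in the fit of all libraries, without control-virus ethanol-fed liver 1 (-0.47, adjusted p = 0.037). Summed over the 19 enzymes, expression was 292, 334 and 258 FPKM in Mettl3 ethanol-fed livers, 386, 412 and 300.5 FPKM in control-virus ethanol-fed livers and 534, 572 and 488.5 FPKM in pair-fed livers. The ethanol-fed groups overlapped through the third control-virus liver, and all 6 of their sums were under the pair-fed sums.

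The 2 INSIG genes, whose proteins both hold SCAP in the endoplasmic reticulum, were changed in opposite directions by ethanol feeding of control-virus mice. Insig1, itself an SREBP2 target, had 12.0, 26.5 and 13.2 FPKM in the Mettl3 ethanol-fed livers, 16.5, 23.5 and 13.6 FPKM in the control-virus ethanol-fed livers and 60.5, 75.1 and 83.2 FPKM in the pair-fed livers. Its mean was 17.2 ± 8.08 FPKM in Mettl3 ethanol-fed livers, 17.9 ± 5.12 FPKM in control-virus ethanol-fed livers and 72.9 ± 11.5 FPKM in pair-fed livers (SD, n = 3 each). The difference of control-virus mice was a log2 fold change of -1.99 ± 0.21 (SE), with adjusted p = 0.00122, the most negative of the 27 genes in that comparison, and with Mettl3 a log2 fold change of -2.09 ± 0.29 (SE), with adjusted p = 0.00118. Ethanol-fed livers of both vectors overlapped and stood far under the pair-fed livers. Insig2, which in liver is also made from a promoter that insulin lowers, had 28.4, 30.0 and 33.3 FPKM in the Mettl3 ethanol-fed livers, 69.9, 37.2 and 44.4 FPKM in the control-virus ethanol-fed livers and 20.8, 21.9 and 22.1 FPKM in the pair-fed livers.

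All control-virus ethanol-fed livers exceeded all Mettl3 livers for Insig2, and these exceeded all pair-fed livers. The mean of Insig2 was 30.6 ± 2.51 FPKM in Mettl3 ethanol-fed livers, 50.5 ± 17.2 FPKM in control-virus ethanol-fed livers and 21.6 ± 0.719 FPKM in pair-fed livers (SD, n = 3 each). In control-virus mice the log2 fold change of 1.14 ± 0.21 (SE), with adjusted p = 0.00743, was a call in all 12 alternatives. With Mettl3 against pair-fed livers the log2 fold change of 0.48 ± 0.20 (SE), with adjusted p = 0.0686, missed the threshold, and became a call under median-ratio scaling (0.74, adjusted p = 0.00788) and without control-virus ethanol-fed liver 1 or 2 (adjusted p = 0.00592 and 0.0373). The FPKM ratio of Insig2 to Insig1 was 2.37, 1.13 and 2.53 in Mettl3 ethanol-fed livers, 4.22, 1.58 and 3.27 in control-virus ethanol-fed livers and 0.343, 0.292 and 0.266 in pair-fed livers. Insig2 was thus above Insig1 in every ethanol-fed liver and below it in every pair-fed liver, on a scale per gene length. The tables give 1 value per gene, so that reads from the Insig2 starts printed above cannot be told apart.

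Srebf2, which encodes SREBP2, had 5.16, 5.76 and 4.72 FPKM in the Mettl3 ethanol-fed livers, 5.46, 6.96 and 5.41 FPKM in the control-virus ethanol-fed livers and 8.56, 8.41 and 7.36 FPKM in the pair-fed livers. All ethanol-fed livers were below all pair-fed livers, by less than for most enzymes. In control-virus mice it had -0.40 ± 0.12 on the log2 scale, adjusted p = 0.0389, a call that was lost in 8 of 12 alternatives. These included ethanol-fed liver 1 or 3 left out (adjusted p = 0.057 and 0.0961) and pair-fed liver 1, 2 or 3 left out (0.122, 0.136 and 0.0719). With Mettl3 against pair-fed livers it had -0.55 ± 0.12 on the log2 scale, adjusted p = 0.00542. Scap, the escort of SREBP2, had 9.43, 8.05 and 14.7 FPKM in the Mettl3 ethanol-fed livers, 22.5, 13.5 and 12.0 FPKM in the control-virus ethanol-fed livers and 21.3, 27.2 and 23.7 FPKM in the pair-fed livers. The first control-virus ethanol-fed liver reached the pair-fed range. Scap was not called in control-virus mice (-0.60 ± 0.22 on the log2 scale, adjusted p = 0.068), was called without that liver (-0.86, adjusted p = 0.00202), and was lower in Mettl3 than in pair-fed livers (-1.13 ± 0.25 on the log2 scale, adjusted p = 0.00679).

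Among the remaining 4 genes, Stard4, a soluble carrier that moves cholesterol between membranes, had 9.44, 9.92 and 7.53 FPKM in the Mettl3 ethanol-fed livers, 14.3, 13.2 and 10.8 FPKM in the control-virus ethanol-fed livers and 21.1, 26.98 and 27.7 FPKM in the pair-fed livers. Rdh11, a retinal reductase known as an SREBP target, had 6.94, 6.65 and 6.23 FPKM in the Mettl3 ethanol-fed livers, 10.2, 8.43 and 9.98 FPKM in the control-virus ethanol-fed livers and 15.0, 16.8 and 14.4 FPKM in the pair-fed livers. Both genes formed 3 separate ranges, with Mettl3 livers lowest and pair-fed livers highest. Stard4 had a log2 fold change of -0.93 ± 0.14 (SE), with adjusted p = 0.00419, in control-virus mice and a log2 fold change of -1.40 ± 0.15 (SE), with adjusted p = 0.000477, with Mettl3, and Rdh11 a log2 fold change of -0.64 ± 0.11 (SE), with adjusted p = 0.00572, and a log2 fold change of -1.11 ± 0.10 (SE), with adjusted p = 0.000257. Tmem97, an endoplasmic reticulum protein that binds the cholesterol transporter NPC1, had 34.1, 41.9 and 34.0 FPKM in the Mettl3 ethanol-fed livers, 59.3, 54.9 and 36.5 FPKM in the control-virus ethanol-fed livers and 51.6, 52.5 and 49.9 FPKM in the pair-fed livers. It was not called in control-virus mice (-0.06 ± 0.18 on the log2 scale, adjusted p = 0.808).

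For Tmem97, Mettl3 against pair-fed livers gave a call (-0.48 ± 0.17 on the log2 scale, adjusted p = 0.0439) that did not hold without Mettl3 liver 1 or 3 (adjusted p = 0.126 and 0.0879) or without pair-fed liver 1, 2 or 3 (0.0991, 0.111 and 0.0908). Mylip, an E3 ligase that sends lipoprotein receptors for degradation and is known as an LXR target, had 2.93 to 4.07 FPKM with Mettl3, 2.47 to 3.74 FPKM with control virus under ethanol and 4.24 to 4.72 FPKM in pair-fed livers. Its ethanol-fed livers were all below the pair-fed livers, and the test missed the threshold in control-virus mice (-0.40 ± 0.13 on the log2 scale, adjusted p = 0.0532) and with Mettl3 (-0.33 ± 0.14 on the log2 scale, adjusted p = 0.078). It was called in control-virus mice without ethanol-fed liver 1 or 2 (0.0408 and 0.0482), and in Mettl3 against pair-fed livers without Mettl3 liver 3 (0.0289) or control-virus ethanol-fed liver 3 (0.0388).

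Whether Mettl3 altered these levels under ethanol was asked by setting Mettl3 ethanol-fed against control-virus ethanol-fed livers. None of the 27 genes was called by limma (7 had an unadjusted p under 0.05), and none was called by limma-voom on the recovered reads or by the q-value of the authors' deposited table. Of the 9706 genes tested, 1 was called higher (0.0103%), Mettl3, and 0 lower (0.00%), and 723 had an unadjusted p under 0.05. The adjusted p of the 27 ran from 0.641 to 0.997, and the authors' deposited table has its lowest q-value among them for Dhcr7, 0.202. At a q-value under 0.05 that table lists 0.103% of its genes as higher and 0.510% as lower. The fitted log2 fold change was below 0 for 23 of the 27, against 58.9% of all genes, with a median of -0.33 against -0.04. This is a description of 27 genes with correlated values in 6 livers, and the median ran from -0.47 to -0.18 when single livers were left out. The smallest values were -0.47 without Mettl3 liver 2 and -0.46 without control-virus ethanol-fed liver 3, and the largest were -0.18 without control-virus ethanol-fed liver 2 and -0.19 without Mettl3 liver 3.

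In Pmvk, Tm7sf2, Nsdhl, Dhcr7, Insig2, Stard4 and Rdh11, 7 genes in all, every Mettl3 liver was below every control-virus ethanol-fed liver, and no gene of the 27 had the reverse, against 6.62% and 6.17% of all genes tested. For Nsdhl the log2 fold change was -0.70 (95% interval -1.15 to -0.26, unadjusted p = 0.00736), for Tm7sf2 -0.51 (-0.81 to -0.21, unadjusted p = 0.00471) and for Rdh11 -0.47 (-0.74 to -0.19, unadjusted p = 0.00498). The adjusted p of each was 0.641. Insig2 had -0.66 (-1.19 to -0.12), Dhcr7 -0.56 (-0.95 to -0.16), Stard4 -0.47 (-0.82 to -0.11) and Pmvk -0.34 (-0.63 to -0.04). The intervals of Ebp (-0.20 to 0.27) and Ggps1 (-0.23 to 0.23) were the narrowest around 0, and those of Mvd (-0.90 to 2.00) and Sqle (-1.17 to 0.57) the widest. A p above the threshold does not show that the groups have equal levels.

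**Figure D4:**
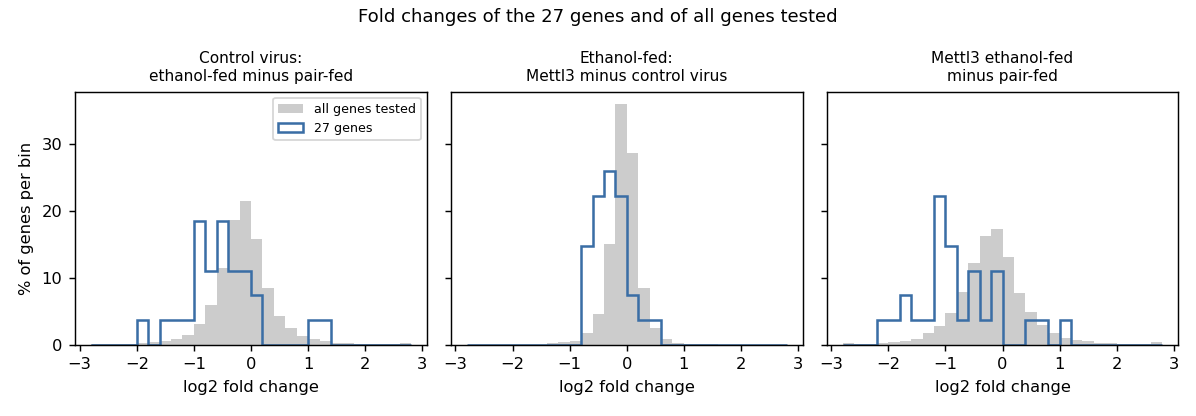
Share of genes per bin of log2 fold change (log2(FPKM + 1) scale), for the 27 genes (blue line) and all genes tested (grey), in 3 comparisons, with values beyond the axis in the outermost bins. The 27 have a median of -0.57 against -0.14 in the left panel, -0.33 against -0.04 in the middle and -0.98 against -0.18 on the right.

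The 3 comparisons share livers, so their values are placed side by side without a measure of likeness. Both ethanol-fed groups were set against the same pair-fed livers, taken to carry the control vector. Lower than pair-fed livers in both groups were 14 genes, namely Acat2, Hmgcs1, Mvk, Pmvk, Fdft1, Tm7sf2, Msmo1, Nsdhl, Hsd17b7, Sc5d, Insig1, Srebf2, Stard4 and Rdh11. A further 5 (Idi1, Fdps, Cyp51, Scap and Tmem97) were called lower only in the Mettl3 group and Lss only in the control-virus group. Sqle was called higher in both groups and Insig2 only in the control-virus group. Mvd, Ggps1, Ebp, Dhcr7 and Mylip passed in neither. Passing in one group and not in the other is not a difference between vectors, which is what the direct comparison tested, with 0 calls.

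Neighbouring genes of sterol metabolism were read from lists of textbook members, also chosen with earlier results of these data known. Their counts of calls stand against 26.0% of all genes lower and 10.0% higher in control-virus mice, and their medians against -0.14. Of 11 tested further sterol synthesis genes and SREBP2 targets, 7 were lower and 2 higher in control-virus ethanol-fed than in pair-fed livers, with a median of -0.58. At the authors' q-value under 0.05, 5 were lower and 2 higher, where 12.6% of the authors' genes were lower and 14.0% higher. Sec14l2, a lipid-binding protein that stimulates squalene epoxidation, had a log2 fold change of -1.42 ± 0.09 (SE), with adjusted p = 0.000424, and Erg28, a scaffold of the sterol demethylation enzymes, a log2 fold change of -0.99 ± 0.12 (SE), with adjusted p = 0.00214. The genes that were higher, named after their values were seen, were Lpin1, a phosphatidate phosphatase (1.17 ± 0.29 on the log2 scale, adjusted p = 0.0196), and Aacs, acetoacetyl-CoA synthetase (1.12 ± 0.31 on the log2 scale, adjusted p = 0.0295). In SREBP processing and sterol-regulated degradation, 5 of 15 were lower and 2 higher, with a median of -0.13, so that neither the count nor the median was far from that of all genes. By the authors' q-value 3 of these were lower and 3 higher. The protease gene Mbtps1, which makes the first cut in SREBP2, had a log2 fold change of -0.44 ± 0.10 (SE), with adjusted p = 0.0167, and Ube2g2, a ubiquitin-conjugating enzyme of this degradation, a log2 fold change of 1.01 ± 0.12 (SE), with adjusted p = 0.00207.

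Of 10 genes of LXR and sterol efflux, 7 were lower and 1 higher in control-virus ethanol-fed livers, with a median of -0.59. By the authors' q-value 4 of these were lower and 1 higher. Abcg5 and Abcg8 form the transporter that sends cholesterol into bile, with means of 13.9 ± 3.44 FPKM in Mettl3 ethanol-fed livers, 16.0 ± 3.99 FPKM in control-virus ethanol-fed livers and 56.7 ± 8.02 FPKM in pair-fed livers for Abcg5 and 4.88 ± 1.50 FPKM in Mettl3 ethanol-fed livers, 8.14 ± 4.73 FPKM in control-virus ethanol-fed livers and 37.6 ± 6.89 FPKM in pair-fed livers for Abcg8 (SD, n = 3 each). Limma gave Abcg5 a log2 fold change of -1.78 ± 0.19 (SE), with adjusted p = 0.00125, and Abcg8 a log2 fold change of -2.18 ± 0.32 (SE), with adjusted p = 0.00357. Scarb1, the receptor that takes up cholesterol from HDL, was lower (-0.92 ± 0.13 on the log2 scale, adjusted p = 0.0029), and Abca1, which loads cholesterol onto HDL, was higher (1.11 ± 0.20 on the log2 scale, adjusted p = 0.00661). In storage and intracellular transport, 6 of 13 were lower, among them Lipa, the lysosomal lipase (-1.12 ± 0.17 on the log2 scale, adjusted p = 0.00411), and Npc2, a lysosomal protein of cholesterol export (-0.52 ± 0.10 on the log2 scale, adjusted p = 0.0071), and 1, Osbp, a sterol exchanger, was higher (0.89 ± 0.18 on the log2 scale, adjusted p = 0.0108). Of 9 isoprenoid branch genes 3 were lower and 2 higher, with a median of -0.10, again near that of all genes. Among them were Rabggta, a prenyltransferase subunit (-0.48 ± 0.09 on the log2 scale, adjusted p = 0.0076), and Nus1, a subunit of the dolichol-forming enzyme (0.53 ± 0.14 on the log2 scale, adjusted p = 0.0269). The median of the storage and transport list was -0.39. By the authors' q-value that list had 3 genes lower and 1 higher, and the isoprenoid branch list 2 lower and 4 higher.

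Of 13 fatty acid synthesis genes, many of them known targets of SREBP1c, 5 were higher and 2 lower in control-virus ethanol-fed than in pair-fed livers, against 10.0% and 26.0% of all genes. By the authors' q-value 8 were higher and 2 lower. Their median was 0.61, against -0.14 for all genes, and the difference between this list and the 27 genes was not tested. Srebf1, which encodes SREBP1c and was counted with the processing genes, had 5.54, 4.78 and 16.1 FPKM in the Mettl3 ethanol-fed livers, 25.0, 23.7 and 9.66 FPKM in the control-virus ethanol-fed livers and 41.1, 45.7 and 40.7 FPKM in the pair-fed livers. It was lower in control-virus ethanol-fed than in pair-fed livers (-1.19 ± 0.32 on the log2 scale, adjusted p = 0.0253), and is named here after its values were seen. Thrsp, a lipogenic regulator, had a log2 fold change of 2.06 ± 0.25 (SE), with adjusted p = 0.00204, and Scd1, the stearoyl-CoA desaturase, a log2 fold change of 0.84 ± 0.11 (SE), with adjusted p = 0.00263. Acaca, the cytosolic acetyl-CoA carboxylase, was higher (1.22 ± 0.26 on the log2 scale, adjusted p = 0.0126) and Fads1, a desaturase of polyunsaturated fatty acids, was lower (-0.84 ± 0.16 on the log2 scale, adjusted p = 0.00872). With Mettl3 against pair-fed livers 0 of the 13 were higher and 4 lower, where 13.9% of all genes were higher and 34.9% lower. With Mettl3 against control virus limma called 0 of the 13, and 13 of 13 fitted values were below 0, against 58.9% of all genes, with a median of -0.64. In that direct comparison limma and limma-voom called 0 genes in each of the 6 neighbouring lists. The authors' deposited table has 2 genes of these lists lower there, Acss2, an acetyl-CoA synthetase of the further SREBP2 targets (log2 fold change -1.07, q-value 0.025), and Pnpla3, a lipid droplet protein of the fatty acid list (log2 fold change -1.56, q-value 0.00333).

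Levels of the 27 genes were also correlated from liver to liver within groups. Over the 9 livers, after subtraction of each group's mean on the log2(FPKM + 1) scale, the median Pearson correlation of the 351 pairs was 0.31, against 0.16 for all pairs of the 10229 genes, and 14% of pairs against 6.35% had a correlation above 0.8. Fdps with Lss reached 0.98, Fdps with Msmo1 0.96, Cyp51 with Msmo1 0.96 and Sqle with Lss 0.93. Sc5d with Scap reached 0.95. Of the 351 pairs 98 (27.9%) were below 0, against 40% of all pairs, the most negative being Ggps1 with Dhcr7 at -0.86, Acat2 with Ebp at -0.84 and Pmvk with Ggps1 at -0.83. These are descriptions from 9 values with 6 degrees of freedom that share library and depth. Sqle, whose group means differed from pair-fed livers in the other direction from those of most enzymes, had correlations of 0.94 with Fdps, 0.93 with Lss, 0.87 with Msmo1, 0.40 with Fdft1, -0.13 with Tm7sf2 and -0.54 with Sc5d. The second Mettl3 liver was the highest of its group for 18 of the 27 genes (22.8% of all genes) and the third the lowest for 15 (27.2%).

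**Figure D5:**
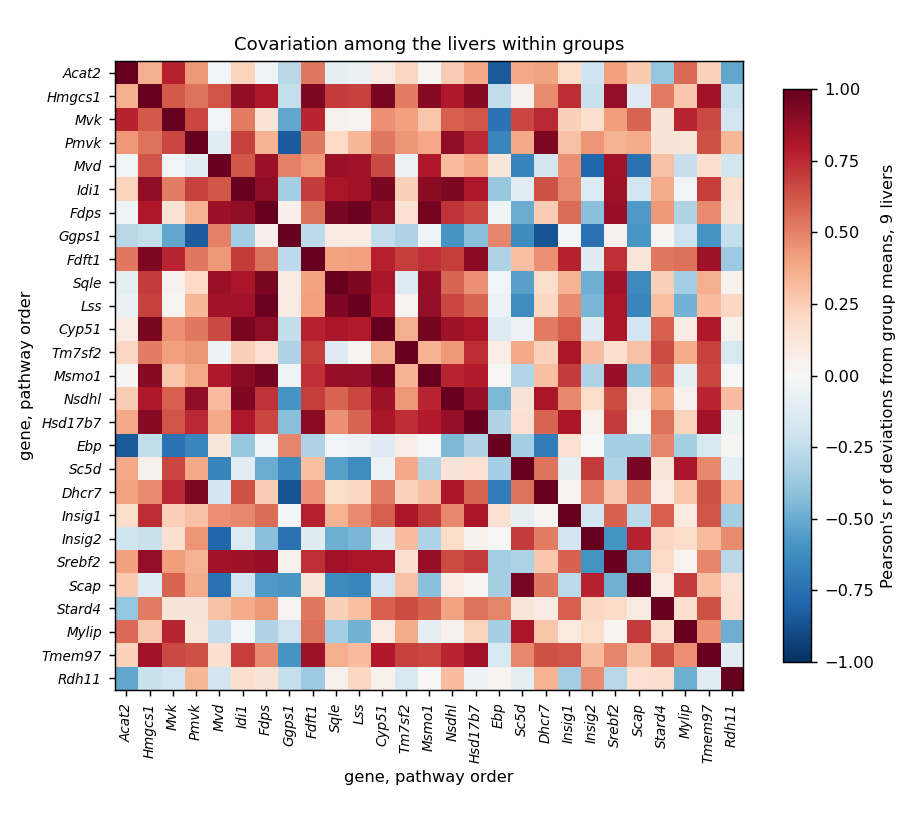
Pearson correlation of each pair of the 27 genes over 9 livers, after subtraction of group means (red positive, blue negative; both axes list the genes in pathway order). Hmgcs1, Idi1, Fdps, Sqle, Lss, Cyp51 and Msmo1 have red cells with each other, while Ggps1, Ebp and Acat2 have many pale or blue cells.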

How the data were processed

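RNA-seq of 9 mouse livers was analysed, 3 in each of 3 groups taken from the sample titles. The submitters' processing notes name fastp, HISAT2, HTSeq and mouse build mm10; their versions and strand setting are not given in the sources used here. The authors deposited 2 tables, of 16842 and 16470 genes, with FPKM per library. Per the file headers they also hold a signal column (mean read counts divided by size factors, named after DESeq2), a linear fold (ratio), its log2, and p-value and q-value columns made by the authors. The tables were joined by gene, since the columns that they share (control-virus ethanol-fed) had relative differences of up to 1.08e-06.

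Signal steps gave whole reads for at least 99.99% of values (tolerance 0.05), from 34656256 to 38159563 reads per library. The main test was limma 3.58.1 (R 4.3.3; trend and robust settings) on log2(FPKM + 1), with a Benjamini-Hochberg threshold of 0.05, after genes under 1 FPKM in all but 2 or fewer libraries were left out. The ethanol comparison and the Mettl3 comparison were fitted on their own 6 libraries, and Mettl3 against pair-fed livers on all 9. Because the files held FPKM, the design's test for FPKM was used. It was also run on simulated reads in which few genes were changed, equally up and down, with the same spread for all genes. Ethanol-fed and pair-fed livers differ in more genes, mostly lower, so that run gives no error rate for these data. Alternatives were a pseudocount of 0.1, no filter, median-ratio scaling, a replicate block, 1 fit of all 9 libraries, limma-voom on recovered reads, and each library left out. Libraries per group limit precision, and the labels do not say that replicate numbers are separate animals, so p-values measure the spread between these samples, which may be technical.

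All 27 genes are accounted for; single-liver values are given for those called in any comparison and for Insig2 and Scap, with Mvd and Dhcr7 added after their values were seen. From each neighbouring list up to 4 genes with the smallest unadjusted p were nameable. Members and lists were chosen with earlier results of these data known. Of the neighbouring lists some members are not reported here. Antisense or overlapping genes cannot be told apart without strand. Promoter sequences come from RefSeq (GRCm38.p6). Python 3.11.15 with pandas 2.3.3, numpy 2.4.6 and matplotlib 3.10.9 made tables and figures.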

Additional observations from a re-analysis of the deposited data

How the results depend on the processing

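Counts of called genes among the 27 stayed within 1.5 times the reported 17 (control-virus ethanol-fed against pair-fed livers) and 20 (Mettl3 ethanol-fed against pair-fed livers) under a pseudocount of 0.1 (17 and 20), no filter (13 and 18), median-ratio scaling (14 and 16) and limma-voom on recovered reads (18 and 20). Without the filter, all genes gave 2668 lower and 951 higher of 16842, and 4314 and 1511 of 16266. Limma-voom gave 2635 and 1001 of 10064, and 3609 and 1413 of 10229. Single libraries left out gave 10 to 17 calls, 10 being without pair-fed liver 1 or pair-fed liver 2, and 14 to 22 calls. Over all genes these fits gave 1130 to 3645 lower and 408 to 1098 higher, and 2398 to 4080 lower and 944 to 1598 higher. The median log2 fold change ran from -0.62 to -0.44 and from -1.04 to -0.75 over the same left-out libraries, and was -0.39 and -0.71 under median-ratio scaling. Mettl3 against control virus had 0 calls in every alternative, with a median from -0.47 to -0.18 over left-out libraries.

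The labels do not say whether replicate numbers pair the samples. Correlations of same-numbered deviations from group means were -0.19, -0.11 and 0.11 for control-virus ethanol-fed with pair-fed livers. For Mettl3 with control-virus ethanol-fed livers they were -0.35, 0.39 and -0.41, and other-numbered ones ran from -0.51 to 0.58. The deviations of 3 livers are tied to each other, so these values cannot decide the question. A fit with the replicate block gave 17, 0 and 20 calls with medians of -0.57, -0.33 and -0.98. In control-virus mice the block added Idi1 (adjusted p = 0.00865) and Cyp51 (0.0307) and removed Lss (0.0553) and Srebf2 (0.0595). No fitted fold change of a called gene changed sign in these alternatives. Of the alternative values of single genes, 947 stayed on their side of the threshold, 64 crossed out of it and 15 crossed into it. The cause of these shifts was not tested. With 3 livers a group, Mvk had the fewest reads of the 27 in a library, 69.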
